A study of Mus musculus with 4 samples.

Results

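The CXC chemokine ligands described here are 7 genes, Cxcl1, Cxcl2, Cxcl3, Cxcl10, Cxcl12, Cxcl16 and Pf4, found by matching the NCBI gene ID of each row to its symbol, out of 16403 genes listed in any of 4 RNA-seq libraries. The libraries came from mouse peritoneal macrophages of C57BL/6 mice, recruited by injecting 4% thioglycolate, collected on day 4, kept as the cells that stuck to the dish over 4 h, and then held in 0.5% serum. The 4 groups were wild-type nontreat, wild-type IL-4, TIF1a-KO nontreat and TIF1a-KO IL-4, with 1 library each, and the IL-4 groups had received 20 ng/mL of the cytokine for 6 h. TIF1a is the protein encoded by Trim24, and the study examined how it acts on the polarization of macrophages by IL-4. TIF1a-KO mice lacked Trim24 in myeloid cells only, through Cre expressed from the LysM gene, so other cells in the dish keep the gene. The mice were young adults by the study's methods, and neither these nor the labels say whether animals were pooled. With 1 library per group, no difference has a replicate check, and every p-value on a pair of libraries compares those libraries and not the conditions.

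Chemokines are small secreted proteins that steer leukocytes through G protein-coupled receptors, and the CXC class is named after the residue that separates its first cysteines. Cxcl1, Cxcl2 and Cxcl3 bind Cxcr2 and draw neutrophils, and their genes are classic early targets of NF-kB in macrophages. Cxcl10 is an interferon-induced ligand of Cxcr3, Cxcl12 is the ligand of Cxcr4 made largely by stromal cells, Cxcl16 is a membrane-anchored ligand of Cxcr6 that can be shed, and Pf4 is the platelet factor that also marks some macrophages. IL-4 drives macrophages towards the alternative (M2) state through Stat6.

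Each library held between 11026033 and 11250099 expected reads, as RSEM divided them among genes, and a count of 0 allows a level of up to 0.272 CPM (3 reads, scaled to library size). Trim24 had 175 and 103 reads in the wild-type nontreat and wild-type IL-4 libraries, against 4 and 10 in the TIF1a-KO libraries, which is the direction the labels give. Of 8 macrophage markers, 8 were listed in every library. Their summed level was 14906 and 14768 FPKM (reads scaled to transcript length and library size) in the wild-type libraries and 8955 and 8320 in the TIF1a-KO libraries, and most of that difference lay in Lyz2, the LysM gene itself, at 11289 and 10811 FPKM against 5193 and 4761. The median log2 ratio over all genes tested was -0.03 for IL-4 in wild-type and 0.02 between genotypes with IL-4, and lay nearer to 0 in the other pairs.

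Sequence shows which of these genes could be told apart by reads. Cxcl1, Cxcl2, Cxcl3, Cxcl10 and Pf4 all lie on mouse chromosome 5, with Cxcl3 at chr5:90786101-90788093 and Cxcl2 at chr5:90903899-90905938 (GRCm38, both on the plus strand). The coding sequences of Cxcl2 and Cxcl3, 303 bases each, were 89.8% identical and shared an unbroken run of 98 bases from the start codon, which lies in exons 1 and 2 of both genes (chr5:90903945-90904134 and chr5:90786171-90786360, GENCODE M21). It is printed because reads inside it match both genes.

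Cxcl2 and Cxcl3 shared coding run: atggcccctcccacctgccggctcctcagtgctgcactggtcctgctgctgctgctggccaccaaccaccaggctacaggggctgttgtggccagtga

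Cxcl1 was 78.7% identical to Cxcl2 and shared no coding run longer than 21 bases with it. The deposited counts of Cxcl2 and Cxcl3 were not whole in 3 of the 4 libraries, which is how RSEM writes reads it has divided among genes, whereas those of Cxcl1, Cxcl10, Cxcl12, Cxcl16 and Pf4 were whole in 4 of 4. Values of Cxcl2 and Cxcl3 are therefore uncertain one by one, and their sum is given beside them.

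The promoters of the 4 inflammatory members carried matches to an NF-kB motif. The RefSeq table (GRCm38.p6) held 250 bases before to 50 bases after the transcription start for 6 of the 7 members, the missing entry being Cxcl16. The NF-kB motif searched was GGG and TTCC parted by any 3 bases, on both strands, so that a palindromic site can match on each and the matches overlap. It was found in 5.56% of all 32851 promoters of that length. Cxcl1, Cxcl2, Cxcl3 and Cxcl10 each held it and Cxcl12 and Pf4 did not. The 200 bases before each start are printed 5′ to 3′ on the strand of the gene, with the matches in capitals, at chr5:90891045-90891244 (Cxcl1, plus strand), chr5:90903699-90903898 (Cxcl2, plus strand), chr5:90785901-90786100 (Cxcl3, plus strand) and chr5:92348890-92349089 (Cxcl10, minus strand).

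Cxcl1 promoter: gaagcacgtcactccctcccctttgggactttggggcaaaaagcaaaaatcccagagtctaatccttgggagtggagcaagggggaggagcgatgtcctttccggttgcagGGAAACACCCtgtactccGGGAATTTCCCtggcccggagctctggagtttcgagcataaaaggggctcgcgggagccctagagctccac
Cxcl2 promoter: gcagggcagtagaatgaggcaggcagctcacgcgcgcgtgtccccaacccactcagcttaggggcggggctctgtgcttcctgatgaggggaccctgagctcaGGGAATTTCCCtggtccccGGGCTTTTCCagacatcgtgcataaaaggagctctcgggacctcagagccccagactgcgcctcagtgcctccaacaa
Cxcl3 promoter: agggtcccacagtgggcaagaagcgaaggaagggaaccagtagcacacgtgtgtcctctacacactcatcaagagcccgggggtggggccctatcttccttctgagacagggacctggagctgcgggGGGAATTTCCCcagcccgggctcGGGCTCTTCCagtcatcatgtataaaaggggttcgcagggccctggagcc
Cxcl10 promoter: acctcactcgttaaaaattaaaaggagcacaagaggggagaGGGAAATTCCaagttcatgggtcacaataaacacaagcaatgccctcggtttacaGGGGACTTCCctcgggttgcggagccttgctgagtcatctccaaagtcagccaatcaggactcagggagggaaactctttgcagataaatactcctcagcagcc

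Cxcl1, Cxcl2 and Cxcl3 each held the same 11-base run GGGAATTTCCC, in which a plus-strand and a minus-strand match overlap, between position -97 and position -61 from the start. Cxcl10 held 2 separate matches, GGGAAATTCC from position -159 and GGGGACTTCC from position -104. Its promoter also matched an interferon regulatory factor motif, GAAA repeated after any 2 bases, at -213 to -204, which 3.44% of promoters hold, and an AP-1 motif, TGANTCA, at -74 to -68, which 7.81% hold. A STAT6 motif, TTC and GAA parted by any 4 bases, found in 6.95% of promoters, matched none of the 6. These matches are descriptions of letters in a short window, and the motifs were chosen after the expression values were known.

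**Figure D1:**
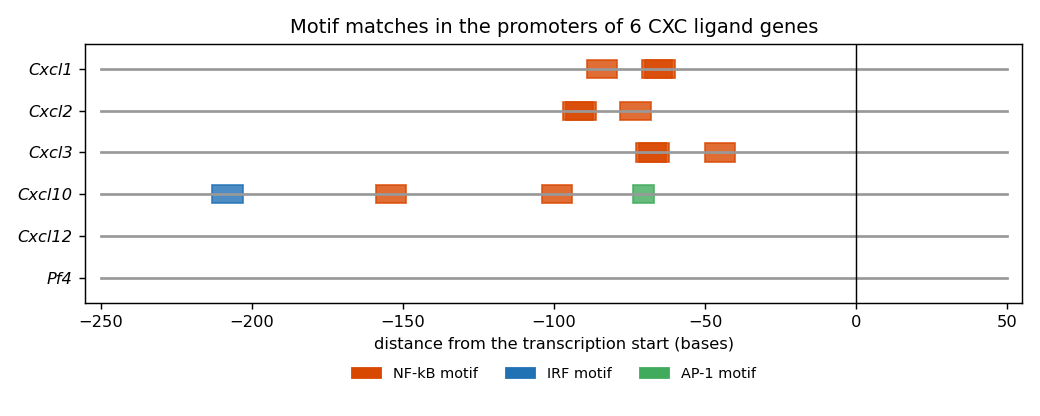
Positions of motif matches (coloured boxes; darker where matches on both strands overlap) in the promoters of 6 CXC ligand genes, by distance from the transcription start in bases. NF-kB matches lie within 159 bases before the start of Cxcl1, Cxcl2, Cxcl3 and Cxcl10, and the Cxcl12 and Pf4 lines carry no box.

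Cxcl16 and Pf4 were the most abundant of the 7 ligands in all 4 libraries, and together they made up most of the family's level. The summed FPKM of the 7 genes was 62.2 in wild-type nontreat, 40.1 in wild-type IL-4, 54.1 in TIF1a-KO nontreat and 38.1 in TIF1a-KO IL-4. Cxcl16 accounted for 54.3% and 49.8% of that sum in the wild-type and TIF1a-KO nontreat libraries and for 37.0% and 32.9% in the IL-4 libraries. Pf4 accounted for 32.9% and 39.0% without IL-4 and for 50.8% and 50.9% with it. The most abundant ligand was thus Cxcl16 in both nontreat libraries and Pf4 in both IL-4 libraries. The other 5 genes summed to between 4.92 and 7.99 FPKM, and 2 of the 7, Cxcl3 and Cxcl10, had fewer than 10 reads in every library.

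**Figure D2:**
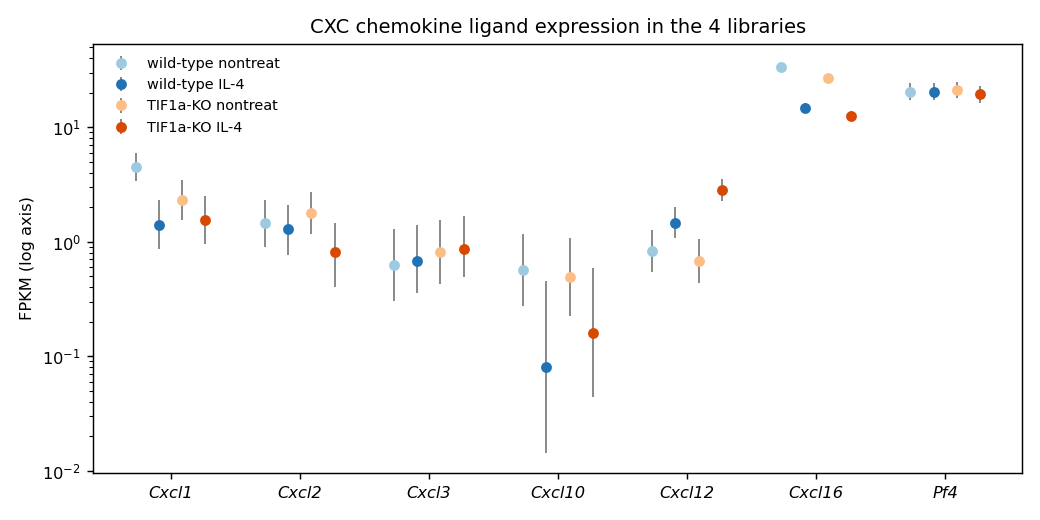
FPKM (log axis) of the 7 CXC ligands in the 4 libraries, 1 point per library, with bars giving the 95% Wilson interval of the read count (counting error only). Cxcl16 is lower in both IL-4 libraries (14.8 and 12.5) than in both nontreat libraries (33.8 and 27.0), Cxcl12 is highest in TIF1a-KO IL-4 (2.82), and Pf4 lies between 19.4 and 21.1.

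The first question was how IL-4 changed these ligands in wild-type cells. A gene was called where a two-sided Fisher's exact test on the reads, adjusted by Benjamini-Hochberg over all genes with a read in the pair, gave an adjusted p under 0.05 and the fold on FPKM + 0.1 was above 1.5. In wild-type cells 3 of the 7 ligands were called, Cxcl1 and Cxcl16 lower and Cxcl12 higher, beside 12.8% of the 15593 genes tested (4.91% higher and 7.88% lower). The median log2 ratio of the 7 was -0.17. In TIF1a-KO cells 2 of 7 were called, Cxcl16 lower and Cxcl12 higher, beside 9.32% of 15738 genes (5.29% higher and 4.03% lower), with a median of -0.55.

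Among the Cxcr2 ligands, Cxcl1 stood at 4.51 FPKM (47 reads) in wild-type nontreat, 1.41 (15 reads) in wild-type IL-4, 2.30 (24 reads) in TIF1a-KO nontreat and 1.54 (16 reads) in TIF1a-KO IL-4. The wild-type nontreat library was therefore high and the other 3 lay lower. In wild-type cells Cxcl1 fell by 1.61 ± 0.42 on the log2 scale with IL-4 (SE from counting error, adjusted p = 0.00018), a 3.05-fold lower level. In TIF1a-KO cells the log2 ratio was -0.55 ± 0.46 and missed the threshold (adjusted p = 0.518). The test of the difference between both responses gave 1.07 log2 units (95% interval from counting error -0.15 to 2.30, adjusted p = 0.33), so the responses were not shown to differ between genotypes. Without IL-4, Cxcl1 was at a log2 ratio of -0.94 ± 0.36 in TIF1a-KO against wild-type (adjusted p = 0.0986).

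Cxcl2 stood at 1.45 FPKM (17 reads), 1.28 (15.3 reads), 1.79 (21.1 reads) and 0.81 (9.48 reads) in wild-type nontreat, wild-type IL-4, TIF1a-KO nontreat and TIF1a-KO IL-4. Only the TIF1a-KO IL-4 library lay under 1 FPKM, and the log2 ratio of that library to TIF1a-KO nontreat was -1.05 ± 0.56 (unadjusted p = 0.043, adjusted p = 0.136, Fisher's exact test), against -0.17 ± 0.50 in wild-type cells. Cxcl3, the near copy of Cxcl2, stood at 0.63, 0.68, 0.81 and 0.86 FPKM in the same order, on 7 to 9.52 reads, and its IL-4 log2 ratios were 0.10 ± 0.72 and 0.08 ± 0.65. Neither gene was called in any pair. Summed to remove the division of shared reads, Cxcl2 and Cxcl3 had 24 and 23 reads in wild-type nontreat and IL-4, a CPM ratio of 0.94 (95% interval 0.507 to 1.74). The same sum was 30 and 19 reads in TIF1a-KO nontreat and IL-4, a ratio of 0.634 (0.337 to 1.16). Both intervals include 1.

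Cxcl10, the interferon-induced ligand, was at the edge of detection, with 7 reads in wild-type nontreat, 1 in wild-type IL-4, 6 in TIF1a-KO nontreat and 2 in TIF1a-KO IL-4 (0.57, 0.08, 0.49 and 0.16 FPKM). Both IL-4 libraries were lower than both nontreat libraries. The CPM ratio was 0.14 in wild-type (95% interval 0.0031 to 1.09, adjusted p = 0.0999, Fisher's exact test) and 0.333 in TIF1a-KO (0.0329 to 1.86), and neither passed the test.

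Cxcl16, the membrane-anchored ligand, had 915 reads in wild-type nontreat, 410 in wild-type IL-4, 730 in TIF1a-KO nontreat and 339 in TIF1a-KO IL-4, or 33.8, 14.8, 27.0 and 12.5 FPKM. It stood above 86.3% and 83.2% of listed genes without IL-4 and above 71.7% and 68.2% with it. With IL-4 it fell by 1.18 ± 0.09 on the log2 scale in wild-type cells (2.27-fold, adjusted p = 2.41e-45) and by 1.10 ± 0.09 in TIF1a-KO cells (2.14-fold, adjusted p = 5.09e-32). The difference between both responses was 0.08 log2 units (95% interval -0.17 to 0.33), an interval that covers counting error only. Between genotypes the log2 ratio was -0.32 ± 0.07 without IL-4 (adjusted p = 0.000224) and -0.24 ± 0.11 with it (adjusted p = 0.091), both under the 1.5-fold limit and neither called.

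Cxcl12, the Cxcr4 ligand, was the single member called higher after IL-4. Its reads were 21 in wild-type nontreat, 41 in wild-type IL-4, 19 in TIF1a-KO nontreat and 83 in TIF1a-KO IL-4, at 0.83, 1.47, 0.68 and 2.82 FPKM. The nontreat libraries were low and near each other, and the TIF1a-KO IL-4 library stood above the other 3. The gene rose by 1.90 ± 0.36 log2 units in TIF1a-KO cells (3.74-fold, adjusted p = 8.32e-10), a ratio higher than that of 98.5% of genes tested. In wild-type cells it rose by 0.76 ± 0.38 (1.69-fold, adjusted p = 0.0474), a call that was lost when a trend of the ratios with transcript length was removed (0.72, adjusted p = 0.072). RSEM gave it a mean transcript length of 2290 to 2657 bases over the libraries, since it divides the reads among 3 transcripts, and FPKM moves with that length.

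Between genotypes, Cxcl12 was the single ligand called. With IL-4 it was 1.86-fold higher in TIF1a-KO than in wild-type cells (log2 ratio 0.90 ± 0.27, adjusted p = 0.000973), beside 3.81% of 15573 genes called, or 3.05% in that direction. Without IL-4 the log2 ratio was -0.25 ± 0.45, and 0 of the 7 ligands were called by Fisher's exact test, beside 1.58% of 15623 genes; 2 of the 7, Cxcl1 and Cxcl16, had an unadjusted p under 0.05 there. The IL-4 response of Cxcl12 was 1.18 log2 units larger in TIF1a-KO than in wild-type cells on counts (95% interval 0.14 to 2.21, unadjusted p = 0.0257, adjusted p = 0.157). The interval left out 0 and the adjusted value missed the threshold, and 0 of the 7 responses were called different between genotypes at the same limits of adjusted p and fold (by an unadjusted p under 0.05, 1 of 7, by the z test on counts), beside 2.43% of 13408 genes.

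Stromal cell markers as a sum rose with IL-4 in TIF1a-KO cells, as Cxcl12 did, but fell in wild-type cells, where Cxcl12 rose. Of 11 fibroblast and mesothelial markers, 11 were listed, and their summed reads were 2372 in wild-type nontreat, 1970 in wild-type IL-4, 1184 in TIF1a-KO nontreat and 2402 in TIF1a-KO IL-4. Lum had at most 2 reads in any library. Cxcl12 had 8.85, 20.8, 16.0 and 34.6 reads per 1000 stromal marker reads in the same order. On that scale the IL-4 library was higher than the nontreat library of the same genotype. Most stromal marker reads came from Col1a1 and Col1a2, so the scale need not follow the number of stromal cells, and no interval was computed for it. The wild-type nontreat and TIF1a-KO IL-4 libraries had near-equal stromal sums and 21 against 83 Cxcl12 reads. Col1a1, a fibrillar collagen chain, followed its own order, with 723, 573, 319 and 1020 reads, and was highest in TIF1a-KO IL-4, as Cxcl12 was. Col1a2 was highest there too (742 reads). Col3a1 (381, 296, 163 and 237 reads), Dcn (300, 289, 166 and 186) and Pdgfra (286, 187, 174 and 159) were instead highest in wild-type nontreat. The part of stromal cells in the Cxcl12 values was not tested, and in bulk RNA fewer cells of a type and less RNA per cell cannot be told apart.

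**Figure D3:**
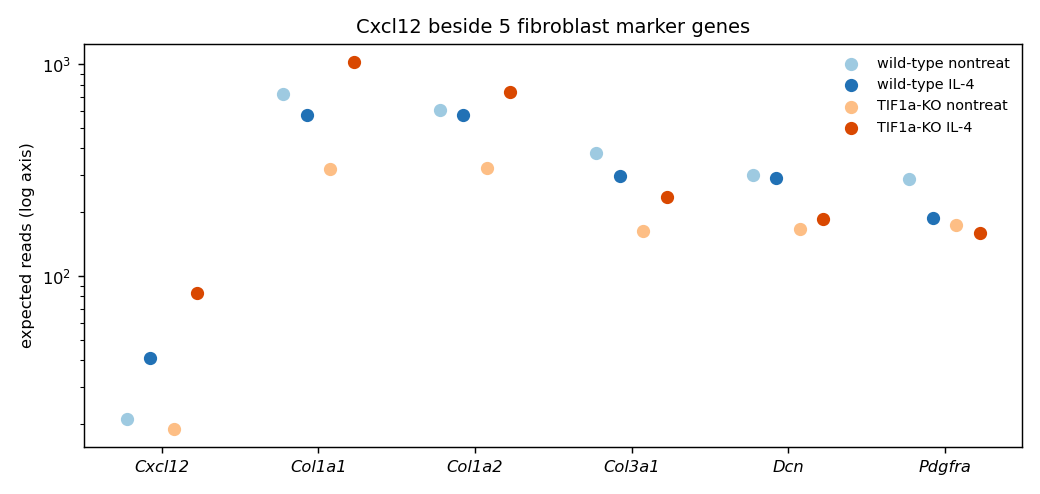
Expected reads (log axis) of Cxcl12 and of 5 fibroblast marker genes in the 4 libraries, 1 point per library. Cxcl12 is higher in both IL-4 libraries (41 and 83 reads) than in both nontreat libraries (21 and 19), while Col1a1 is highest in TIF1a-KO IL-4 (1020) and lowest in TIF1a-KO nontreat (319). Col3a1, Dcn and Pdgfra are highest in wild-type nontreat.

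Pf4 spanned the least over the libraries. It had 133, 135, 137 and 126 reads in wild-type nontreat, wild-type IL-4, TIF1a-KO nontreat and TIF1a-KO IL-4, at 20.5, 20.4, 21.1 and 19.4 FPKM, above 77.1% to 79.3% of listed genes. All 4 log2 ratios lay between -0.12 and 0.04, with SEs of 0.18. The 95% interval of the CPM ratio was 0.778 to 1.27 for IL-4 in wild-type and 0.717 to 1.18 in TIF1a-KO. Changes of 1.5-fold in either direction lay outside both. These intervals cover counting error between 2 libraries only, so they do not bound the change between conditions. Of 9 platelet and megakaryocyte markers, 4 were listed, each with fewer than 10 reads in every library, and Ppbp, the other abundant platelet chemokine, was at 0 throughout.

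**Figure D4:**
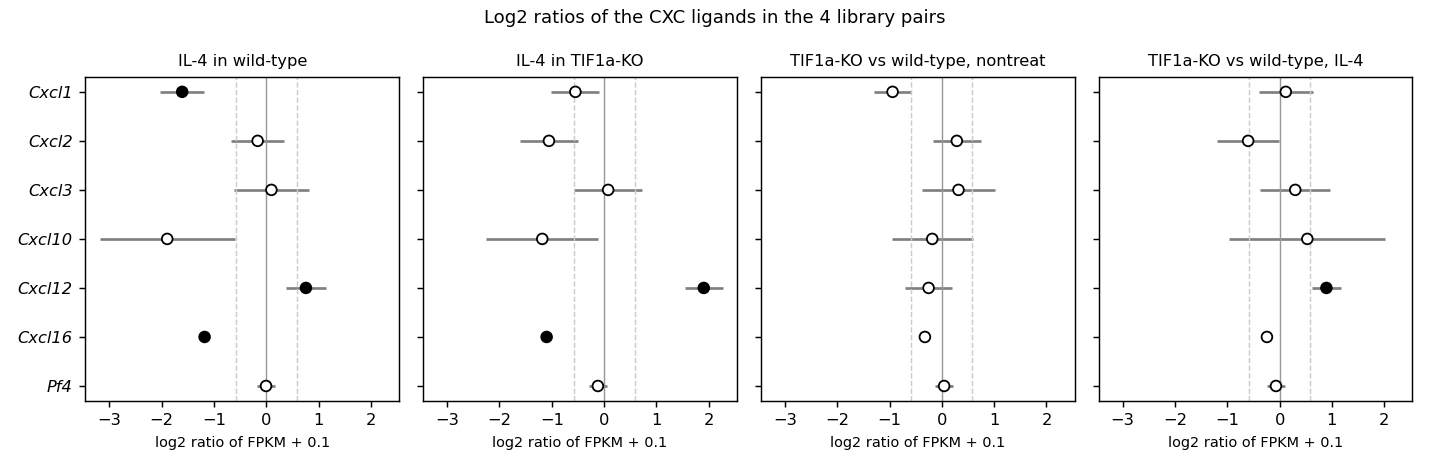
Log2 ratios of FPKM + 0.1 for the 7 CXC ligands in the 4 pairs of libraries (panels), with bars of 1 SE from counting error; filled points were called and dashed lines mark 1.5-fold. Cxcl16 is called lower with IL-4 in both genotypes (-1.18 and -1.10), and Cxcl12 is called higher with IL-4 in both (0.76 and 1.90) and higher in TIF1a-KO with IL-4 (0.90).

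A fit of all 4 libraries with additive IL-4 and genotype terms (edgeR's quasi-likelihood test, 1 residual degree of freedom) takes the disagreement between both responses as its error. That error is shared across all genes fitted, so a p-value does not rest on the disagreement of its own gene alone. The fit covered 5 of the 7 ligands, leaving out Cxcl3 and Cxcl10 for low counts, and called 3 for IL-4, beside 25.3% of 11791 genes (12.0% higher and 13.3% lower). Cxcl1 had an IL-4 effect of -1.17 log2 units (adjusted p = 0.0275), Cxcl16 of -1.14 (adjusted p = 1.19e-06) and Cxcl12 of 1.59 (adjusted p = 0.00168). For genotype 0 were called, beside 1.66% of genes, and Cxcl12 (0.66) and Cxcl16 (-0.29) had unadjusted p-values of 0.0465 and 0.0132. DESeq2 called 0 for genotype as well. The DESeq2 Wald test on the same design called Cxcl16 alone for IL-4, with adjusted p = 0.531 for Cxcl1 and 0.108 for Cxcl12.

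**Figure D5:**
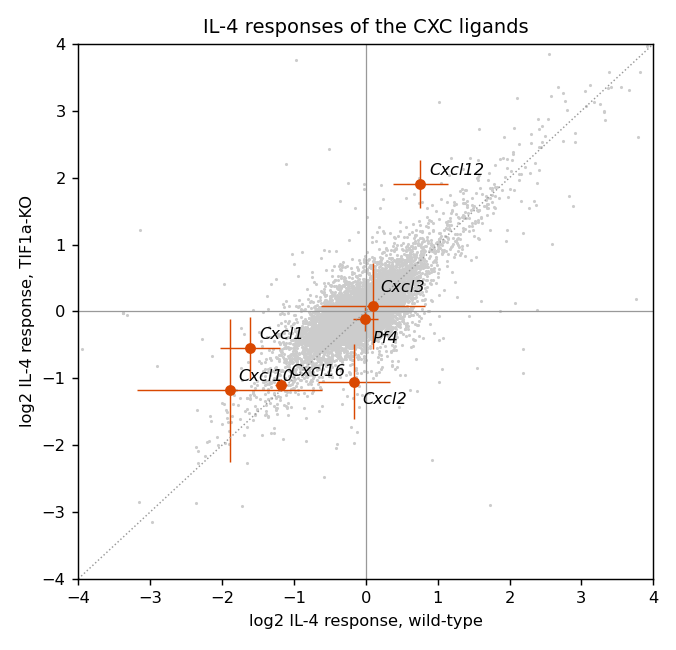
Log2 IL-4 response in TIF1a-KO (y) against wild-type (x) cells for the 7 CXC ligands (labelled, bars of 1 SE from counting error) over 10493 genes averaging 1 FPKM or more (grey, of which 69 lie outside the axes), with a dotted line of equal response. Cxcl16 and Pf4 lie near the line, Cxcl12 lies above it (0.76 against 1.90), and Cxcl1 (-1.61 against -0.55) lies above it with wide error.

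Over the 4 libraries, the gene whose centred log2 FPKM profile was nearest to that of Cxcl16 among 7455 genes averaging 5 FPKM or more was Ccl4, another macrophage chemokine, at a distance of 0.08, with 14.4, 6.57, 11.9 and 5.17 FPKM. Next was Por at 0.13, which encodes the reductase that feeds electrons to cytochromes P450, with 156, 74.1, 140 and 65.3 FPKM. The nearest to Cxcl12 were Zfp609, at a distance of 0.22 with 4.08, 6.87, 4.01 and 12.6 FPKM, and Gm4070, at 0.26. The nearest to Cxcl1 was Cd33, a sialic acid receptor of myeloid cells, at 0.42, and to Cxcl2 Mir8112, at 0.17. The nearest to Cxcl10 were 2510009E07Rik, at 0.14, and Cd93, a surface receptor of myeloid and endothelial cells, at 0.17, with 107, 31.1, 106 and 40.2 FPKM. Cxcl3 and Pf4 spanned less than 1 log2 unit and were not matched. With 4 libraries such likeness is only a description.

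Of 8 other CXC ligands, 6 were tested in each pair. Cxcl5 was the single one called, lower with IL-4 in wild-type cells, where 7.88% of all genes were called lower. Cxcl5, another neutrophil-drawing Cxcr2 ligand, stood at 2.69 FPKM (49 reads) in wild-type nontreat, 0.70 (13 reads) in wild-type IL-4, 1.37 (25 reads) in TIF1a-KO nontreat and 0.55 (10 reads) in TIF1a-KO IL-4. It ran in the order of Cxcl1 except that TIF1a-KO IL-4 was its lowest library. It fell by 1.80 ± 0.44 log2 units with IL-4 in wild-type cells (3.49-fold, adjusted p = 1.62e-05), and the log2 ratio in TIF1a-KO cells was -1.18 ± 0.53 (adjusted p = 0.0635). Cxcl11 had 10.4, 13.4, 18.6 and 20.8 reads and Cxcl14 22, 25, 33 and 16, and neither was called in any pair.

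Of the receptors, Cxcr4, which binds Cxcl12, was the most abundant, at 108, 73.6, 99.5 and 67.1 FPKM in wild-type nontreat, wild-type IL-4, TIF1a-KO nontreat and TIF1a-KO IL-4. Its IL-4 log2 ratios were -0.56 (adjusted p = 1.64e-29) and -0.57 (adjusted p = 4.4e-28), just under the 1.5-fold limit and so not called, opposite in sign to those of Cxcl12. Cxcr2, which binds Cxcl1, Cxcl2 and Cxcl3, had 84.1, 83.9, 104 and 105 reads and IL-4 log2 ratios of -0.03 and 0.01. Cxcr1, a related receptor, had 19, 5, 53 and 6 reads, fell with IL-4 in wild-type (-1.72) and TIF1a-KO cells (-2.91), and was higher in TIF1a-KO than in wild-type cells without IL-4 (1.43, adjusted p = 0.00159). Of 8 receptors tested in wild-type cells, 1 was called with IL-4, beside 12.8% of all genes tested. In TIF1a-KO cells it was 1 of 7, beside 9.32%. With the length trend removed, 2 receptors were called lower in each genotype. In that setting 817 of 15593 genes were called lower in wild-type and 638 of 15738 in TIF1a-KO cells.

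Among genes that free or hold chemokines, 3 were called with IL-4 in each genotype. The share called over all genes tested was 12.8% in wild-type and 9.32% in TIF1a-KO cells. Of the 10 tested, 3 rose and 0 fell in wild-type cells, and 2 rose and 1 fell in TIF1a-KO cells, with median log2 ratios of 0.37 and 0.29 over the 10. Sdc4, a heparan sulphate proteoglycan of the cell surface, went from 9.16 to 37.6 FPKM in wild-type and from 7.80 to 33.8 in TIF1a-KO cells, log2 rises of 2.03 and 2.10. Sdc1, on the same list, went the other way, from 113 to 75.4 and from 143 to 98.4 FPKM. Its log2 ratios of -0.58 and -0.54 lay under the 1.5-fold limit and were not called. Rhbdf2, which brings the sheddase Adam17 to the surface, went from 13.8 to 25.5 and from 13.3 to 29.9 FPKM, log2 rises of 0.88 and 1.17. Mmp12, the macrophage elastase, which can trim CXC ligands, rose by 0.63 in wild-type cells and had a log2 ratio of 0.54 in TIF1a-KO cells. Mmp9 had log2 ratios of -0.23 in wild-type cells, where it was not called, and -0.81 in TIF1a-KO cells, where it fell on 66 and 36 reads. The enzymes that shed Cxcl16 were not called: Adam10 had IL-4 log2 ratios of 0.33 and 0.43 and Adam17 of -0.29 and -0.22.

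Among 7 genes that control the stability of chemokine mRNA, 1 rose and 1 fell with IL-4 in wild-type cells, and 0 rose and 1 fell in TIF1a-KO cells. Over all genes tested, 4.91% rose and 7.88% fell in wild-type cells, and 5.29% rose and 4.03% fell in TIF1a-KO cells. Zfp36, which encodes tristetraprolin, a protein that promotes decay of AU-rich mRNAs, stood at 29.9, 52.1, 35.2 and 49.2 FPKM over the 4 libraries in the order above. It rose by 0.80 in wild-type cells and its log2 ratio was 0.48 in TIF1a-KO cells. Zfp36l2, of the same family, went from 93.1 to 43.4 FPKM in wild-type cells and from 95.7 to 54.1 in TIF1a-KO cells, log2 ratios of -1.10 and -0.82.

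Other early genes of NF-kB did not share 1 direction. Of 25 tested in wild-type cells, 4 rose and 6 fell with IL-4, beside 4.91% and 7.88% of all genes. Of 24 in TIF1a-KO cells 6 rose and 5 fell, beside 5.29% and 4.03% of all genes. The median log2 ratios over the NF-kB genes tested were -0.0060 and 0.07. Over the 19 of them averaging 1 FPKM or more the medians were -0.16 and -0.06, so the sign in TIF1a-KO cells turned with that limit. Ccl7 and Ccl2, which draw monocytes, rose by 4.01 and 2.29 log2 units in wild-type cells and by 3.26 and 2.07 in TIF1a-KO cells, while Cxcl1 was at -1.61 and -0.55. Ier3, an early response gene, rose by 3.55 and 3.36. Csf1, the macrophage growth factor, rose by 1.16 and 2.03. Ccl4, on the same list, fell by 1.12 and 1.18. The risers were named for having the largest mean IL-4 ratios of the list at 5 FPKM or more, and the other genes that fell are not named. Of 25 interferon-induced genes, 2 rose and 1 fell in wild-type cells and 1 rose and 1 fell in TIF1a-KO cells. The shares of all genes to set beside them are those given for the NF-kB genes. Irf1, an interferon regulatory factor, rose by 1.33 and 0.88. Between genotypes, 0 rose and 3 fell of 24 NF-kB genes with IL-4, and 3 rose and 0 fell of 25 interferon-induced genes. Over all 15573 genes tested in that pair, 475 were called higher and 119 lower. With the length trend removed, the counts were 1 higher and 2 lower for the NF-kB genes and 2 higher and 0 lower for the interferon-induced genes.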

How the data were processed

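The authors sequenced total RNA on a HiSeq instrument, and the submitters' processing notes name Bowtie and RSEM, on GRCm38 (mm10), with versions not given in the sources used here. Each deposited table holds the expected count, which need not be whole, and the FPKM per gene of 1 library. Per library, 22.2% to 22.8% of these counts had decimals. Genes not listed in a library were set to 0.

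Expected counts were rounded for tests. Pairs of libraries were compared by two-sided Fisher's exact test with scipy 1.17.1, fold changes used log2(FPKM + 0.1), and SEs cover counting error only. A fold on that scale understates changes of low genes. The additive fit used edgeR 4.0.16 with TMM scaling and filterByExpr, and DESeq2 1.42.0 was an alternative. The difference of IL-4 responses was a z test on log2(counts + 0.5) against counting error, over genes with at least 10 reads. Wilson intervals were computed for levels and exact binomial (Clopper-Pearson) intervals for ratios.

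The ligands, the 17 gene lists and the motifs were chosen with earlier results of these data known. Genes named were the ligands, Trim24, related ligands, receptors and processing genes with at least 10 reads in a library, up to 4 genes of each further list with the largest mean IL-4 ratio at 5 FPKM or more, and the 2 nearest profiles, and not every gene so chosen is described. Lyz2, Lum, Ppbp and the markers plotted with Cxcl12 other than Col1a1 and Col1a2 were named after their values were seen. Simulated libraries were drawn from the mean of all 4 libraries, with counting error only. On them the pair test for IL-4 in wild-type recovered 199 of 200 changed genes, with 3 false calls among 15470 genes. The changed genes were picked among genes with many reads, so the score does not cover ligands with few reads. A simulated length trend raised the false calls to 1131, and removing the trend left 1. Alternatives were other pseudocounts, filters, scalings and fold limits, an assumed biological variation, and removal of a lowess trend with transcript length.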

Additional observations from a re-analysis of the deposited data

Results flagged for a closer look

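Of the described genes, 44 had enough reads for the test of the difference (z test on counts against counting error, 1 library per group). By adjusted p, 13 of the 44 had IL-4 responses that differed between genotypes. For 6 of these the difference was also above 1.5-fold, beside 2.43% of all 13408 genes tested. Some described genes were named for their profile or after their values were seen, so these counts do not measure enrichment. Csf1 responded by 0.87 log2 units more in TIF1a-KO than in wild-type cells (95% interval 0.43 to 1.30, adjusted p = 0.00201). Among the collagen genes, Col1a1 responded by 2.04 more (1.80 to 2.28, adjusted p = 6.18e-59), Col1a2 by 1.31 more (1.06 to 1.56, adjusted p = 3.08e-22) and Col3a1 by 0.93 more (0.57 to 1.29, adjusted p = 1.74e-05). The nontreat level was lower in TIF1a-KO than in wild-type cells for Csf1, Col1a1 and Col1a2 (log2 ratios of -0.83, -1.16 and -0.91), so each difference combines the nontreat and the IL-4 libraries. Col3a1 was lower in TIF1a-KO than in wild-type cells both without IL-4 (2.63 against 6.13 FPKM) and with it (3.82 against 4.67 FPKM). The genes nearest to Cxcl12 in profile, Zfp609 (0.89, adjusted p = 7.60e-11) and Gm4070 (0.71, adjusted p = 1.40e-09), also differed, and they were chosen for their likeness to it.

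Smaller differences, TIF1a-KO minus wild-type, were -0.0640 for Lyz2 (adjusted p = 3.26e-08), -0.0939 for Mmp12 (2.54e-07), 0.28 for Zfp36l2 (5.58e-05), -0.32 for Zfp36 (0.0219), -0.46 for Irf1 (0.000248), 0.45 for 2510009E07Rik (5.91e-06) and 0.38 for Cd93 (1.48e-14). With the length trend removed, the difference for Zfp36 no longer passed the z test (adjusted p = 0.116). Of the 7 CXC ligands, 0 met the z test by adjusted p, and Cxcl12 came nearest (1.18, adjusted p = 0.157).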

How the results depend on the processing

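Of 312 alternative values for the 7 ligands, 287 kept their direction and side of the threshold, 18 lost the call and 7 changed sign, all of the last with a main value within 0.12 of 0. Fisher's test has no term for variation between animals. Setting the biological variation (its coefficient) to 0.2 took called ligands from 3 to 0 for IL-4 in wild-type, from 2 to 1 in TIF1a-KO (Cxcl12) and from 1 to 0 between genotypes with IL-4, and at 0.4 all were 0. A fold limit of 2 left 0 between genotypes with IL-4, and DESeq2 left 1 of the 3 ligands of the additive IL-4 effect; the cause was not tested. No paired analysis was possible because each group has 1 library, and leaving out a library leaves no residual degree of freedom.

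Over all genes, calls for IL-4 in wild-type went from 1994 to 861 (fold of 2), 258 (variation 0.2) and 45 (0.4), in TIF1a-KO from 1466 to 711, 272 and 33, between genotypes without IL-4 from 247 to 128, 15 and 7, and with IL-4 from 594 to 171, 21 and 11. A pseudocount of 1 gave 156 and 322 for the last comparisons, and removing the length trend gave 316 with IL-4 and 101 in place of 326 for the difference of responses. The additive IL-4 calls were 2987, or 1675 without a filter and 1229 by DESeq2. The additive genotype calls were 196, or 330 with DESeq2 size factors, 24 without a filter, 624 with a length offset and 65 by DESeq2. Removing the length trend moved the higher share of calls from 38.4% to 49.8% for IL-4 in wild-type, from 80.0% to 69.0% between genotypes with IL-4, from 77.6% to 63.9% for the additive genotype effect and from 85.3% to 72.3% for the difference.

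Signs that changed with the length trend removed were those of Cxcl3 (-0.0577) and Col1a2 (0.125) for IL-4 in wild-type, Cxcr2 for IL-4 in TIF1a-KO (-0.00451), and Pf4 (0.115), Adam17 (-0.0808) and Csf1 (-0.0637) between genotypes with IL-4. In the additive fit with that offset, Pf4 (0.104) and Adam17 (-0.0463) changed sign for genotype and Cxcr2 (-0.00118) for IL-4, also with DESeq2 size factors (-0.000785). For the difference of responses they were Cxcl3 (0.113), Pf4 (0.0225), Cxcr4 (0.0286), Adam10 (-0.0496), Adam17 (-0.0679) and Srgn (0.0749). TMM scaling turned Pf4 (0.0296) and Cxcr2 (0.00155) for IL-4 in wild-type and Adam17 (0.00250) between nontreat genotypes, and DESeq2 size factors turned Pf4 (0.0242) and Adam17 (0.0105) in the same comparisons.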
